A study of Mus musculus with 6 samples.

Results

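NF-Y is a transcription factor built from 1 copy each of the proteins NF-YA, NF-YB and NF-YC, encoded in the mouse by Nfya, Nfyb and Nfyc. These 3 genes of the 52550 in the deposited gene table, and their 30 transcripts of the 131146 in the transcript table, are described here in primary keratinocytes given recombinant IL-33. The genes were chosen because Nfya differed between the groups of this same experiment, so every value of Nfya, Nfyb and Nfyc and of their transcripts is a description with no test. Choosing the members needed no threshold, since all annotated transcripts of the 3 genes were taken.

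Keratinocytes are the main cells of the epidermis, and IL-33 is a cytokine of the IL-1 family that is released by damaged barrier cells. The cells came from the skin epidermis of wild-type C57BL/6 mice at postnatal day 0 to 2 and grew for 2 days in culture. In one group of 3 libraries they then had recombinant IL-33 for 12 h, and in the other group of 3 libraries they were untreated. The sources used here do not give the dose. The labels also do not say whether the 3 libraries of a group are separate cultures or animals, and the p-values below describe no more than library-to-library spread, which may be technical.

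NF-YB and NF-YC pair through a histone fold, a protein shape shared with core histones. This pair then takes up NF-YA, which reads the sequence CCAAT in promoters. A glutamine-rich activating region lies in the first part of NF-YA. In published work on mammalian cells the NF-YA protein is known in a long and a short form, which differ by the residues encoded by exon 3, and the balance between them varies with cell type and differentiation. NF-YA is also widely described as the subunit whose amount limits the complex.

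The libraries held 43860488, 34188173 and 44255925 deposited estimated counts with IL-33, against 44692876, 41456441 and 45266298 in untreated cells, and about 4 of these counts stood for 1 sequenced fragment. Summed over 8 keratinocyte markers, expression was 36140 to 38860 CPM (counts scaled to the TMM-adjusted library total) with IL-33 and 36122 to 37205 CPM in untreated cells, although Krt15, a basal keratin, was at 1.41 CPM or less in every library. Krt5 and Krt14 made up most of this sum. Krt5 was at 18346 to 19820 CPM with IL-33, above its 17863 to 18310 CPM in untreated cells. Itgb4 was at 849 to 1007 CPM with IL-33, below its 1112 to 1131 CPM in untreated cells. Of all tested genes, 13.7% were without overlap in either direction. The 6 melanocyte markers summed to 1112 to 1206 CPM with IL-33 and 1111 to 1163 CPM in untreated cells, so pigment cell transcripts were present in both groups. The 7 fibroblast markers summed to 34.5 to 42.2 CPM with IL-33 and 39.2 to 46.5 CPM in untreated cells. The 7 immune markers summed to 9.78 to 11.8 CPM with IL-33 and 9.01 to 10.1 CPM in untreated cells, mostly from Csf1r, with Itgam, Cd3e and Cd207 at 0. The 4 endothelial markers summed to 16.3 to 17.1 CPM with IL-33 and 13.5 to 19.8 CPM in untreated cells, and the 3 Merkel cell markers to 2.85 to 3.85 CPM with IL-33 and 3.82 to 5.81 CPM in untreated cells. The group ranges overlapped for each of these 6 sums. The part of other cell types in the values below was not tested, and in bulk RNA fewer cells of a type and less RNA per cell cannot be told apart.

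All 3 genes lie on the minus strand of GRCm38, the assembly also called mm10, in the GENCODE M21 annotation. Nfya (ENSMUSG00000023994.13) is at chr17:48386885-48409906 and has 13 transcripts. Nfyb (ENSMUSG00000020248.18) is at chr10:82748701-82764144 and has 7, and Nfyc (ENSMUSG00000032897.17) is at chr4:120757438-120831572 and has 10.

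The Nfya transcripts differ mainly at exon 3, numbered from the noncoding first exon of Nfya-201. The exon 3 sequences of GENCODE M21 are printed because the share of transcripts with each form differed between the groups. Nfya-201 carries an 87-base exon 3 (chr17:48398982-48399068), and its first 3 bases, in capitals, are lacking from the 84-base form of Nfya-202 (chr17:48398982-48399065). In Nfya-212 exon 2 is joined straight to exon 4, and the printed junction has 24 bases on each side, with exon 4 in capitals.
Nfya-201 exon 3: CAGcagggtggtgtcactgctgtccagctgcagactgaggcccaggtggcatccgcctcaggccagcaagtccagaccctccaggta
Nfya-202 exon 3: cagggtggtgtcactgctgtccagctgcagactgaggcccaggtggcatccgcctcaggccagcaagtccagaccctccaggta
Nfya-212 exon 2 to exon 4: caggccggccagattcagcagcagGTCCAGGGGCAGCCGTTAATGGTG
Exon 2 ends on a whole codon, so exon 3 adds 29 codons in the longer form and 28 in the shorter, and skipping it keeps the reading frame. The coding sequences are 1041 bases in Nfya-201, 1038 in Nfya-202 and 954 in Nfya-212. A second difference of 18 bases, or 6 codons, lies at the start of exon 7 (chr17:48392489-48392506), where Nfya-206 lacks the sequence ttacagtccctgtttcag that the longer form holds.

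**Figure D1:**
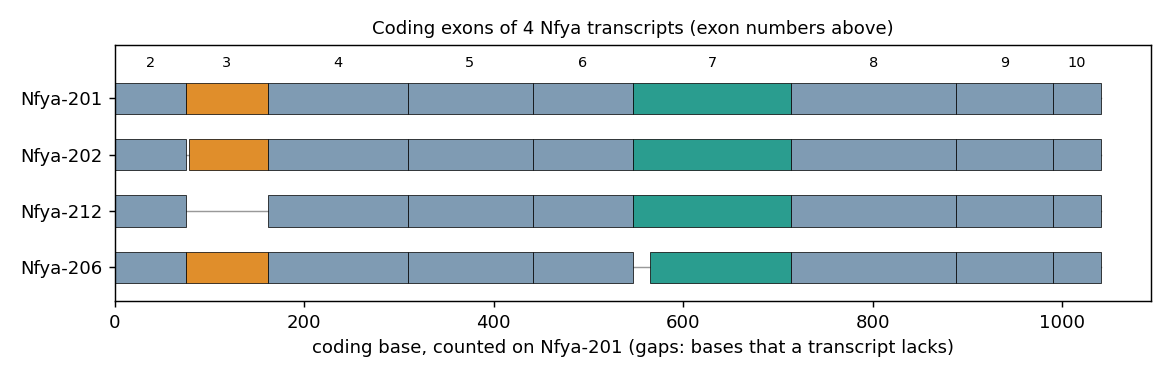
Coding exons of 4 Nfya transcripts, drawn to scale in coding bases from the start codon of Nfya-201, with exon 3 in orange, exon 7 in green and gaps for the bases a transcript lacks. The rows differ at exon 3, which is 87 bases in Nfya-201 and Nfya-206, 84 bases in Nfya-202 and absent in Nfya-212.

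Nfya, the DNA-reading subunit, stood higher with IL-33, while in the gene table Nfyb and Nfyc overlapped between the groups. In the gene table, Nfya was at 8.48, 9.25 and 8.31 FPKM (fragments per kilobase of feature, scaled to depth) with IL-33, against 4.62, 4.39 and 4.76 FPKM in untreated cells. All 3 IL-33 libraries lay above all 3 untreated ones, with means of 8.68 ± 0.501 FPKM with IL-33 and 4.59 ± 0.190 FPKM in untreated cells (SD, n = 3 each). The deposited counts behind these levels were 3030, 2568 and 2995 with IL-33 and 1686, 1485 and 1759 in untreated cells. The edgeR fit over all genes put the log2 fold change of Nfya at 0.92 (SE 0.069, 95% interval 0.76 to 1.07). In that fit 11 of 15778 tested genes (0.0697%) were called at an adjusted p under 0.05, and 7 (0.0444%) were called higher with IL-33. Nfya was among the 7, which is the value it was chosen for.

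Nfyb, one of the 2 histone-fold subunits, was at 5.52, 5.08 and 5.76 FPKM with IL-33, against 5.14, 5.58 and 6.08 FPKM in untreated cells. The groups overlapped, with a log2 fold change of -0.04 (SE 0.090, 95% interval -0.24 to 0.16). Nfyc, its partner in the histone-fold pair, was at 12.8, 13.1 and 13.2 FPKM with IL-33, against 14.6, 12.5 and 11.0 FPKM in untreated cells. The IL-33 libraries lay within the wider untreated range, and the log2 fold change was 0.04 (SE 0.099, 95% interval -0.18 to 0.26). The 3 subunits thus had 1 gene without overlap between groups, where 13.7% of all tested genes had none in either direction, 7.39% with IL-33 above and 6.26% with IL-33 below. That share is background only, since this contrast chose the genes.

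**Figure D2:**
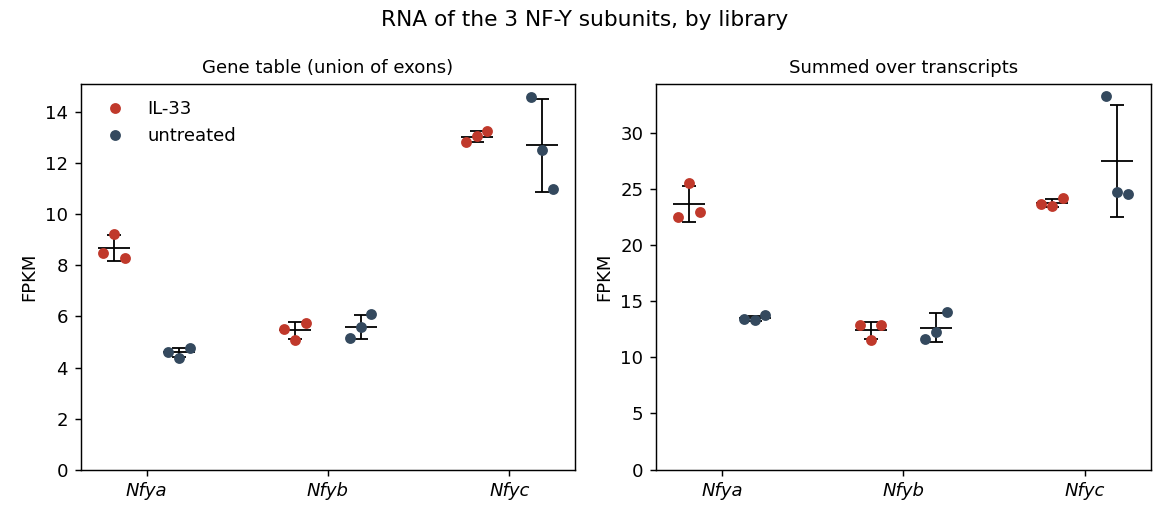
FPKM of Nfya, Nfyb and Nfyc in each library, from the gene table (left panel) and summed over transcripts (right panel). IL-33 is drawn left of untreated, points are libraries and bars are the mean and SD of 3. In the gene table Nfya lies between 8.31 and 9.25 FPKM with IL-33, above the untreated range of 4.39 to 4.76 FPKM, while the Nfyb and Nfyc ranges overlap. In the summed transcripts Nfyc does not overlap, at 23.5 to 24.2 FPKM with IL-33 and 24.5 to 33.3 FPKM in untreated cells.

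The order of the subunits by RNA level depended on how the level was set per length. In the gene table Nfyc was highest and Nfya second with IL-33, where they averaged 13.0 ± 0.213 and 8.68 ± 0.501 FPKM and Nfyb 5.45 ± 0.342 FPKM. In untreated cells Nfyc was at 12.7 ± 1.82 FPKM, Nfyb at 5.60 ± 0.471 FPKM and Nfya at 4.59 ± 0.190 FPKM. The gene table divides by all exonic bases of a gene, retained introns included, which lowers every subunit, and Nfya by the largest factor. With the FPKM of single transcripts summed, Nfya stood at 23.6 ± 1.64 FPKM with IL-33 and 13.5 ± 0.230 FPKM in untreated cells. On that scale Nfyb was at 12.4 ± 0.766 FPKM with IL-33 and 12.6 ± 1.26 FPKM in untreated cells, and Nfyc at 23.8 ± 0.350 FPKM with IL-33 and 27.5 ± 4.99 FPKM in untreated cells. On the summed scale the groups did not overlap for Nfyc, which was at 23.6, 23.5 and 24.2 FPKM with IL-33, against 33.3, 24.8 and 24.5 FPKM in untreated cells, so the overlap of Nfyc held in the gene table but not in the summed transcripts. On the summed scale Nfya and Nfyc did not differ beyond their spread with IL-33, and Nfya and Nfyb did not in untreated cells.

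The ratio of Nfya to each partner was higher with IL-33 on both scales. Nfya over Nfyb in gene FPKM was 1.54, 1.82 and 1.44 with IL-33, against 0.899, 0.786 and 0.782 in untreated cells. Nfya over Nfyc was 0.661, 0.708 and 0.627 with IL-33, against 0.316, 0.351 and 0.433 in untreated cells. Neither ratio overlapped between the groups. Both ratios carry the Nfya difference that the genes were chosen for, so they are no separate evidence. The ratio of the 2 histone-fold subunits, Nfyc over Nfyb, did overlap, at 2.40 ± 0.149 with IL-33 and 2.30 ± 0.519 in untreated cells (SD, n = 3 each). With summed transcript FPKM, Nfya over Nfyb was 1.91 ± 0.259 with IL-33 and 1.07 ± 0.089 in untreated cells, and Nfya over Nfyc was 0.996 ± 0.078 with IL-33 and 0.50 ± 0.085 in untreated cells.

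Among the Nfya transcripts, the higher level was uneven. Nfya-202, with the 84-base exon 3, was at 6.56, 6.12 and 5.42 FPKM with IL-33, against 2.41, 2.47 and 1.86 FPKM in untreated cells. Nfya-212, which skips exon 3, was at 4.90, 5.27 and 4.54 FPKM with IL-33, against 1.34, 1.66 and 1.73 FPKM in untreated cells. Neither transcript overlapped between the groups, and the log2 fold changes were 1.42 (SE 0.173) for Nfya-202 and 1.63 (SE 0.171) for Nfya-212. Nfya-201, with the 87-base exon 3, was at 3.27, 4.15 and 4.03 FPKM with IL-33, against 3.96, 2.98 and 4.37 FPKM in untreated cells. The groups overlapped for Nfya-201, with a log2 fold change of 0.01 (SE 0.201, 95% interval -0.49 to 0.52). So the transcript with the highest mean was Nfya-202 with IL-33 and Nfya-201 in untreated cells.

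Nfya-206, which joins the 87-base exon 3 with the shorter exon 7, was at 2.81, 3.10 and 3.31 FPKM with IL-33, against 1.24, 1.53 and 1.41 FPKM in untreated cells. It too was without overlap, with a log2 fold change of 1.13 (SE 0.246). Nfya-205, a shorter coding model with an 81-base exon 3, was at 1.37, 2.71 and 2.43 FPKM with IL-33, against 1.40, 1.20 and 1.26 FPKM in untreated cells, and IL-33 replicate 1 lay inside the untreated range. The 4 retained-intron transcripts, Nfya-207, Nfya-210, Nfya-211 and Nfya-213, summed to 1.52 ± 0.344 FPKM with IL-33 and 1.57 ± 0.162 FPKM in untreated cells and overlapped between the groups. The remaining Nfya-203, Nfya-204, Nfya-208 and Nfya-209 lay between 0 and 2.098 FPKM in every library, and their groups overlapped.

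Of the 13 Nfya transcripts, 10 had a mean of at least 12 deposited counts, the floor of 3 fragments. In 3 of these 10 the FPKM values with IL-33 all lay above the untreated values, and in 0 they lay below. In edgeR's fit of 40163 transcripts 0.0299% were called, and by FPKM 5.87% lay above, 5.48% below and 11.4% either way. Nothing is read from these counts, since the gene was chosen in this contrast. The deposited transcript levels are estimates that divide shared reads between models. Nfya-201 and Nfya-202 differ only by the 3 bases of exon 3 and by 11 bases at the 3′ end, so the split between them rests on few reads. Nfya-212 differs from both by a whole exon, by 141 further bases at its 5′ end and by a few bases at its 3′ end. The levels stood for 126 to 200 fragments of Nfya-201 per library, 86 to 292 of Nfya-202, 62 to 222 of Nfya-212 and 22 to 58 of Nfya-206.

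**Figure D3:**
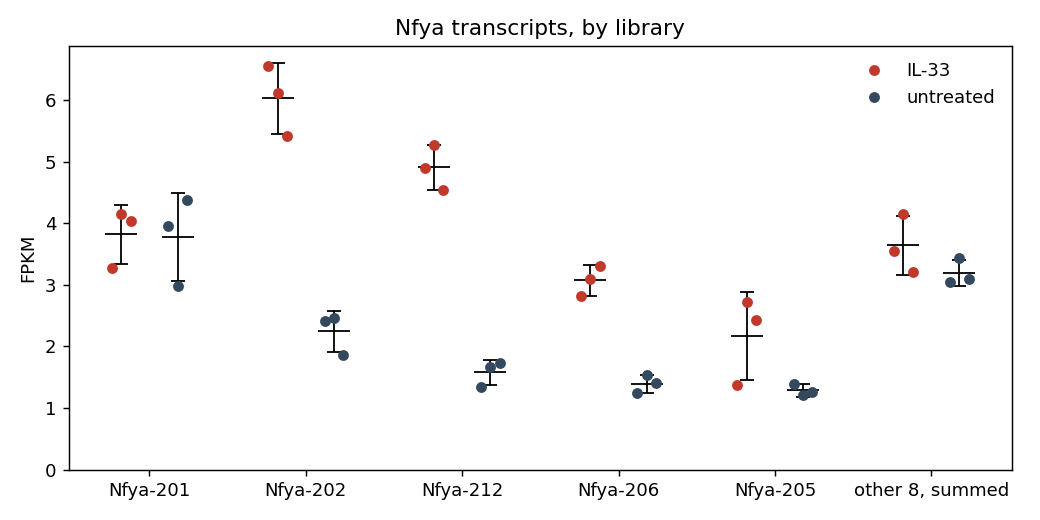
FPKM of 5 Nfya transcripts and of the other 8 summed, in each library, with IL-33 left of untreated; points are libraries and bars are the mean and SD of 3. Nfya-202, Nfya-212 and Nfya-206 are without overlap, with IL-33 above, and Nfya-201 overlaps.

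Grouped by exon 3, skipping took a larger share with IL-33. Over the 6 transcripts that span exons 2 to 4, skipping made up 27.9%, 26.5% and 23.7% of FPKM with IL-33, against 15.7%, 17.6% and 17.7% in untreated cells. The means were 26.0% ± 2.15 with IL-33 and 17.01% ± 1.13 in untreated cells (SD, n = 3 each), without overlap. The 87-base form took 33.8% ± 2.86 with IL-33 and 49.2% ± 4.05 in untreated cells, and all IL-33 libraries lay below all untreated ones. Its transcripts Nfya-201 and Nfya-206 went opposite ways as shares of all Nfya FPKM, each without overlap. Nfya-201 took 16.1% ± 1.51 with IL-33 and 28.0% ± 4.89 in untreated cells. Nfya-206 took 13.0% ± 1.23 with IL-33 and 10.4% ± 1.14 in untreated cells, although its shares of deposited counts overlapped. The lower share of the 87-base form thus came from Nfya-201. The 84-base form took 29.6% ± 3.59 with IL-33 and 21.5% ± 3.91 in untreated cells, with IL-33 above throughout. The 81-base form overlapped, at 10.5% ± 3.04 with IL-33 and 12.3% ± 0.729 in untreated cells. These groupings by exon 3 were chosen after the data had been seen. A share can be lower without a lower level: summed FPKM of the 87-base form was 6.89 ± 0.703 with IL-33 and 5.17 ± 0.631 in untreated cells.

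The shares differed in the same direction among the 3 leading transcripts alone. These transcripts hold most of the FPKM grouped above, so their shares are no separate evidence. Nfya-212 made up 33.2% ± 0.730 of their FPKM with IL-33 and 20.9% ± 3.08 in untreated cells. Nfya-202 made up 40.9% ± 3.19 with IL-33 and 29.8% ± 5.82 in untreated cells, and Nfya-201 made up 25.9% ± 3.38 with IL-33 and 49.4% ± 6.68 in untreated cells. By share of all Nfya FPKM, 3 of the 10 transcripts with enough counts lay above and 3 below with IL-33. Of tested transcripts in genes with at least 2, 5.22% lay above, 5.03% below and 10.3% either way. At exon 7 the groups overlapped: the longer form made up 73.6% ± 2.60 of the FPKM with IL-33 and 74.8% ± 1.15 in untreated cells.

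**Figure D4:**
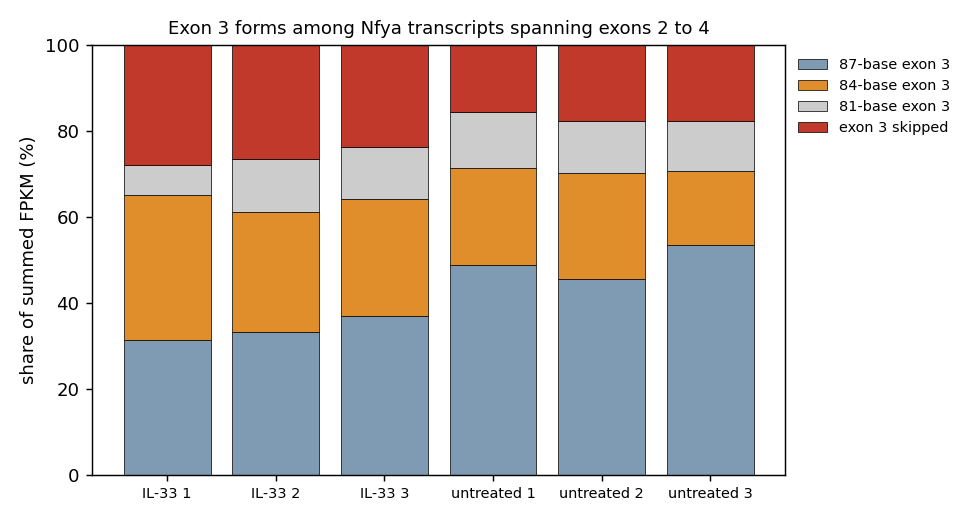
Share of each exon 3 form in the FPKM of the 6 Nfya transcripts that span exons 2 to 4, in each library. IL-33 libraries are drawn left of untreated ones. Skipping and the 84-base form take a larger share with IL-33, and the 81-base form overlaps. The 87-base form, which sums Nfya-201 and Nfya-206, takes a smaller share.

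Nfyb was read out mostly as 1 coding transcript. Nfyb-204, with a coding sequence of 621 bases, was at 10.4, 9.66 and 11.0 FPKM with IL-33, against 9.80, 10.6 and 11.5 FPKM in untreated cells. It made up 83.4% ± 2.31 of the summed Nfyb FPKM with IL-33 and 84.1% ± 2.43 in untreated cells. The other coding model, Nfyb-205, lay between 0.211 and 0.985 FPKM, and the 5 noncoding ones summed to 1.299 ± 0.397 FPKM with IL-33 and 1.59 ± 0.179 FPKM in untreated cells. Of the 7 Nfyb transcripts, 3 had a mean of at least 12 deposited counts, and the groups overlapped for each of these 3.

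In Nfyc the whole coding sequence and the noncoding models stood differently. Nfyc-201, Nfyc-202, Nfyc-203 and Nfyc-204 hold the same 1005 coding bases and differ outside them. Together they were at 17.97, 18.7 and 18.5 FPKM with IL-33, against 17.8, 16.98 and 13.9 FPKM in untreated cells. The groups were without overlap by the narrow gap between IL-33 replicate 1 and untreated replicate 1, with means of 18.4 ± 0.384 FPKM with IL-33 and 16.2 ± 2.07 FPKM in untreated cells. Nfyc-201 was the main one of the 4 and overlapped, at 16.4, 10.8 and 17.1 FPKM with IL-33, against 11.5, 14.4 and 13.9 FPKM in untreated cells. The division between the 4 models varied between libraries: Nfyc-203 was listed at 0 except in replicate 2 of each group, and Nfyc-204 reached 6.33 FPKM in untreated replicate 1.

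The noncoding Nfyc-208 was at 2.20, 1.48 and 2.47 FPKM with IL-33, against 11.8, 2.47 and 6.74 FPKM in untreated cells. The highest IL-33 library and the lowest untreated library differed beyond the second decimal only, and in CPM they overlapped. Nfyc-206, a shorter coding model, was at 1.61, 1.55 and 1.46 FPKM with IL-33, against 2.55, 3.11 and 2.46 FPKM in untreated cells, without overlap. These were the 2 of 7 Nfyc transcripts with a mean of at least 12 deposited counts, of 10 in all, that lay lower with IL-33, and 0 lay higher, where over all tested transcripts 5.48% lay lower, 5.87% higher and 11.4% either way. The full coding sequence made up 77.4% ± 1.88 of summed Nfyc FPKM with IL-33 and 59.6% ± 7.95 in untreated cells, and untreated replicate 1, with 12.2 FPKM of noncoding models, was the lowest in this share.

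No annotated gene overlaps Nfya. Oard1, which encodes an enzyme that removes ADP-ribose from proteins, starts 107 bases away on the opposite strand. It was at 17.7 ± 0.923 CPM with IL-33 and 19.0 ± 1.55 CPM in untreated cells, and its log2 fold change of -0.10 (SE 0.101) had an adjusted p of 0.890 in edgeR's quasi-likelihood test. The groups overlapped. Inside Nfyc lie the microRNA genes Mir30c-1, Mir30e and Mir30f, each listed at 0 in all 6 libraries. The libraries were made with an mRNA kit.

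The genes whose profile over the 6 libraries was closest to that of Nfya included Golim4, Chdh, Mark4 and Ccl2. Likeness was the root mean square difference of log2 CPM after centring each gene, over 11004 genes with a mean log2 CPM of at least 1. It was 0.151 for Golim4, which encodes a Golgi membrane protein, 0.184 for Chdh, which encodes choline dehydrogenase, and 0.201 for Mark4, a kinase of microtubule-associated proteins. It was 0.211 for Ccl2, a chemokine that attracts monocytes. Golim4 was at 354 ± 11.8 CPM with IL-33 and 228 ± 4.08 CPM in untreated cells, and Ccl2 at 11.6 ± 1.16 CPM with IL-33 and 7.17 ± 1.06 CPM in untreated cells. In edgeR's quasi-likelihood test Golim4 and Mark4 were called (adjusted p 0.000606 and 0.0207), while Chdh and Ccl2 were not (adjusted p 0.490 and 0.319). These genes were picked for a profile like that of Nfya, so a difference between the groups follows from the choice.

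Genes that act with NF-Y or carry CCAAT boxes were then compared between the groups, in 7 lists with 70 genes. Of these, 67 passed the filter on low counts and 0 were called by edgeR's quasi-likelihood test at an adjusted p under 0.05. DESeq2 and limma-voom also called 0. At an unadjusted p under 0.05 there were 7 of 67 (10.4%), where all tested genes had 6.74%. The groups did not overlap for 14 of 67 (20.9%), where all tested genes had 13.7%. The median over all tested genes was 0.00 on the log2 scale, with 50.5% above 0.

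Partners and co-regulators of NF-Y had 16 of 17 genes tested, 9 of them above 0, and the median was 0.03 on the log2 scale. The 2 smallest p-values belonged to subunits of the RFX complex, which binds beside NF-Y at MHC class II promoters. Rfxap was at 14.0 ± 1.27 CPM with IL-33 and 19.2 ± 3.26 CPM in untreated cells, with a log2 fold change of -0.46 (SE 0.136, adjusted p 0.623). Rfxank was at 17.1 ± 0.612 CPM with IL-33 and 13.1 ± 2.36 CPM in untreated cells, with a log2 fold change of 0.38 (SE 0.138, adjusted p 0.740). Neither overlapped between the groups, and neither passed the test over all genes. Kat2b, a histone acetyltransferase that NF-Y recruits, had a log2 fold change of 0.20, and Usf1, a factor that binds E-boxes near CCAAT, of 0.15. Kat2b and Usf1 were also without overlap, with IL-33 above.

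Relatives of the histone-fold subunits, 8 of 8 tested, had 4 above 0, with the median at -0.01. Dr1, a repressor that pairs with Drap1 through histone folds, was at 62.1 CPM with IL-33 and 74.7 CPM in untreated cells (log2 fold change -0.27, adjusted p 0.763 in edgeR). Without IL-33 replicate 3 its log2 fold change was -0.44 with an adjusted p of 0.0457, and over all alternatives its adjusted p ran from 0.0457 to 0.958. With that library left out 90 genes were called in all. Pole3 and Pole4, histone-fold subunits of DNA polymerase epsilon, had log2 fold changes of 0.09 and -0.14, and Chrac1, a partner in chromatin remodelling, of 0.17. Of these, only Pole3 was without overlap, with IL-33 above.

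Cell cycle genes with CCAAT boxes were the list with most members above 0, 12 of 14, all 14 being tested, but the median log2 fold change was 0.04. Top2a, a topoisomerase of dividing cells, was at 334 ± 21.8 CPM with IL-33 and 305 ± 3.09 CPM in untreated cells, without overlap, with a log2 fold change of 0.13 (SE 0.050, adjusted p 0.740 in edgeR). Ccnb2, a mitotic cyclin, was at 80.8 CPM with IL-33 and 74.3 CPM in untreated cells and overlapped. The phosphatases Cdc25c and Cdc25b, which activate cyclin-dependent kinases, had log2 fold changes of 0.17 and 0.07. The Ccnb2 promoter is printed as an example of the motif that NF-Y is known to read. It is the RefSeq window on GRCm38.p6 from 250 bases before to 50 after the start (chr9:70421505-70421804, minus strand), with CCAAT in capitals at positions -87, -54 and -21, each 33 bases from the next.
Ccnb2 promoter: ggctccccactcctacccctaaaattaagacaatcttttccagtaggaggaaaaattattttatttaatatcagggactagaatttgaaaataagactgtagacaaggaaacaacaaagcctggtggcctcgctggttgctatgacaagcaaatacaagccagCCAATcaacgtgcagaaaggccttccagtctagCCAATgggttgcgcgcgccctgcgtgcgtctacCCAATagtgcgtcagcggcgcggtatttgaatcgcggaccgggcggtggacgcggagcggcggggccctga
The letters CCAAT, searched on both strands, were in a window of 10 of the 12 cell cycle genes that have one (83.3%) and in a window of 41.1% of all 27025 genes that have one. Of single windows of this length, 37.4% of 32851 held them. They were in a window of 8 of 9 ER stress genes (88.9%), 4 of 7 other CCAAT-box genes (57.1%) and 2 of 7 histone-fold relatives (28.6%). The lists were drawn up for known ties to NF-Y or CCAAT boxes, so a share above that of all genes is no finding. Of the members, Nfyb had no CCAAT in its window, Nfya had 1 in 1 of its 3 windows, and Nfyc had 5 and 3 in 2 of its 3 windows.

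Sterol and fatty acid genes that NF-Y regulates with SREBP, 11 of 11 tested, had 2 above 0 and a median of -0.03 on the log2 scale. Cyp51, Fdft1 and Sqle, enzymes of cholesterol synthesis, had log2 fold changes of -0.11, 0.12 and -0.29, and the groups overlapped for each. The ER stress genes, 9 of 9 tested, had 1 above 0 and a median of -0.04. Pdia4, a protein disulfide isomerase of the ER, was at 147 CPM with IL-33 and 163 CPM in untreated cells, without overlap (log2 fold change -0.15, SE 0.044, adjusted p 0.623 in edgeR). Its relatives Pdia3 and Pdia6 had log2 fold changes of -0.08 and -0.04, and the chaperone gene Hspa5 of -0.32 with an SE of 0.32. Of these, only Pdia6 was without overlap, with IL-33 below.

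Of the 6 MHC class II genes, which NF-Y binds with RFX, 4 passed the filter, and H2-Aa and Cd74 did not. H2-DMb1 was at 1.34 CPM with IL-33 and 1.11 CPM in untreated cells. H2-Ab1, H2-Eb1 and H2-DMa lay near the floor, at 0.219, 0.204 and 0.319 CPM with IL-33 and 0.511, 0.396 and 0.432 CPM in untreated cells, so no fold is given. The floor of 3 fragments was 0.265 to 0.351 CPM.

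The 8 other CCAAT-box genes, all tested, had 3 above 0, with the median at -0.05. Tpi1, a glycolytic enzyme, was at 422 CPM with IL-33 and 369 CPM in untreated cells, without overlap (log2 fold change 0.19, SE 0.053, adjusted p 0.575 in edgeR). Col1a1, a fibrillar collagen gene of fibroblasts, was at 3.38 CPM with IL-33 and 7.70 CPM in untreated cells, without overlap (log2 fold change -1.18, SE 0.416, adjusted p 0.740). The sums of fibroblast markers given above, to which Col1a1 and Col1a2 belong, overlapped between the groups. Col1a2 had a log2 fold change of -0.26 and overlapped, and Hoxb4, a homeobox factor, had one of 0.14 without overlap.

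**Figure D5:**
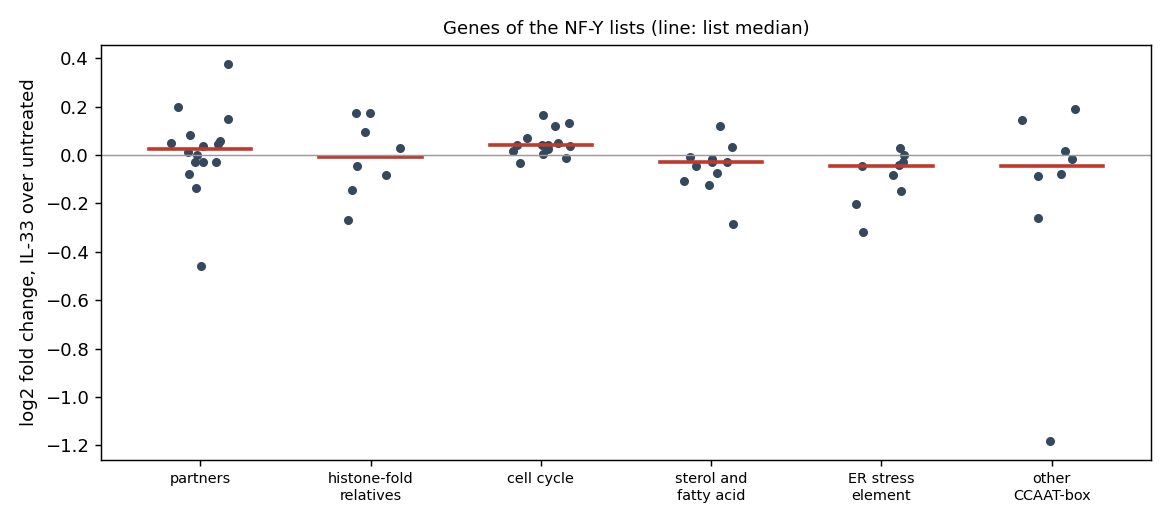
Log2 fold changes, IL-33 over untreated, of the tested genes in 6 lists of NF-Y partners, relatives and CCAAT-box genes, with the list median as a red line; points are genes from the edgeR fit. Medians lie between -0.05 and 0.04, and 0 of the genes were called. The MHC class II list is not drawn because its genes lie near the floor.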

How the data were processed

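The authors' deposited tables give estimated counts and FPKM, per the file headers, for each gene and transcript. HISAT2 2.1.0, StringTie 1.3.4d, FastQC 0.11.7, DESeq2 1.18.1 and the build mm10 are listed, with no role, per the submitters' processing notes. The estimated counts are whole numbers, 34188173 to 45266298 per library. Low values pile up at multiples of 4, so 4 counts were taken as about 1 fragment and 12 as the floor of 3 fragments, which covers counting error only. The sources used here do not name the annotation; GENCODE M21 was taken, which holds 97.2% of the deposited transcript identifiers in the same version, and 52403 of 52550 gene identifiers had a symbol.

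Counts of all 6 libraries were fitted with edgeR 4.0.16 in R 4.3.3 (quasi-likelihood test), with TMM scaling, filterByExpr at a minimum count of 10 and Benjamini-Hochberg adjustment over all genes, at a threshold of 0.05. The fit was also run on simulated counts, which did not copy the scale of about 4 counts per fragment or the estimation behind the deposited counts. CPM are TMM-scaled. The members and gene lists were chosen with earlier results of these data known. From each list the text names the genes called, and otherwise the 4 with the smallest p, and the 5 profiles closest to Nfya; 2 of the genes so chosen are not reported here. No library was a copy of another: counts of every pair differed beyond sampling noise. Alternatives were other scalings and filters, DESeq2 1.42.0, limma-voom (limma 3.58.1), log2(FPKM + 0.1) and log2(FPKM + 1), counts divided by 4, a threshold of 0.1, the replicate number as a block, and each library left out. A comparison of all genes with and without CCAAT was not made, since 68.6% of tested genes had a RefSeq window, too few to stand for all. The same limit left out the CCAAT shares of the partner, sterol and MHC lists.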

Additional observations from a re-analysis of the deposited data

How the results depend on the processing

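The log2 fold change of Nfya lay between 0.79, with log2(FPKM + 1), and 0.95 over 17 alternatives. That of Nfyb ran from -0.10 to 0.02 and that of Nfyc from -0.05 to 0.15, so both took either sign; the highest Nfyc value came without untreated replicate 1. In place of 11, the number of genes called was 17 with no filter, 71 with DESeq2, 5 with limma-voom, 6 with log2(FPKM + 0.1), 4 with log2(FPKM + 1) and 11 to 90 with a library left out. Leaving out IL-33 replicate 1 gave 20, leaving out its replicate 3 gave 90, and leaving out untreated replicate 3 gave 18. The histone-fold list had 0 to 1 gene called with a library left out, and the other lists 0 throughout. In place of 12, the number of transcripts called was 539 with DESeq2, 5 with limma-voom and 6 to 28 with a library left out: 7 when IL-33 replicate 1 was dropped, 28 when IL-33 replicate 3 was and 6 when untreated replicate 2 was. The cause of these differences was not tested. The difference in the share of exon 3 skipping was 9.03 percentage points, 11.0 by deposited counts, 12.4 among the 3 leading transcripts and 8.10 to 10.2 with a library left out. For the 87-base exon 3 it was -15.4, -20.2, -23.5 and -17.3 to -13.3 in the same settings. Same-numbered libraries did not deviate together (correlations 0.03, -0.005 and -0.02). The highest correlation, 0.04, was between IL-33 replicate 2 and untreated replicate 3. Correlations this small cannot decide whether the numbers pair the samples, and the labels do not say. With the replicate number as a block, 8 genes and 0 transcripts were called with edgeR (1196 transcripts at an unadjusted p under 0.05), and Nfya, Nfyb and Nfyc had log2 fold changes of 0.92, -0.04 and 0.05. The planned comparison of genes by CCAAT in the promoter was not run. Depth limits the minor transcripts most, many of which rest on fewer than 12 deposited counts.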
